A study of Mus musculus with 15 samples.

Results

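The matrix metalloproteinases (MMPs) are zinc-dependent proteases that cut collagen, elastin and other proteins of the extracellular matrix, and the tissue inhibitors of metalloproteinases (TIMPs) bind and block them. Most MMPs are made as inactive precursors, so that activity is set by transcription, by activation and by the TIMPs present. Macrophages are a known source of several MMPs in inflamed tissue and in tumors. The genes described here are 9 members of these families, Mmp8, Mmp9, Mmp12, Mmp13, Mmp14, Mmp19, Timp1, Timp2 and Timp3, chosen by symbol among the 55385 genes of the count table. All 9 were found and all 9 passed the filter on low counts, Timp3 through 2 STAT5cKO libraries only.

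RNA was sequenced from bone marrow-derived macrophages (BMDMs) of BALB/c mice aged 6 wk. STAT5fl/fl BMDMs carry loxP-flanked Stat5 alleles, and STAT5cKO BMDMs carry the same alleles with Csf1r-iCre, a Cre driven by the Csf1r promoter that is active in myeloid cells and in some lymphocytes. Cells of both genotypes were kept for 2 h in serum-free DMEM, in 20 ng/mL recombinant mouse GM-CSF (rmGM-CSF), a cytokine that signals through STAT5, or in 4T1 CM, medium conditioned by the 4T1 mouse mammary tumor line. Each treatment has 2 STAT5fl/fl libraries, numbered 112 and 113 in the labels, and 3 STAT5cKO libraries, numbered 114, 115 and 116, giving 15 in all. Values below follow this order of numbers.

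Library totals ran from 16016736 to 22883108 counts, and 3 counts, taken as the floor of detection, correspond to 0.131 to 0.187 CPM, that is, counts scaled to library size. The floor covers counting error only. Stat5a had 637 to 918 counts in the STAT5fl/fl libraries and 0 to 3 in the STAT5cKO libraries, and Stat5b had 977 to 1654 and 0 to 4. The 7 macrophage markers were present in every library, with a summed level of 23830 to 27180 normalised CPM in STAT5fl/fl and 29940 to 42650 in STAT5cKO. Of these, Lyz2 was higher in STAT5cKO in all 3 treatments (log2 fold change 0.60 to 0.63). Only 1 of the 7 was called higher in each genotype comparison, and 0 were called lower. The median log2 fold change over the 7 was negative each time, from -0.03 (DMEM) to -0.12 (4T1 CM). The higher sum was thus not shared by most of the 7. The 10 neutrophil markers summed to 0.322 to 2.60 CPM, Ly6g and Retnlg had no counts and S100a9 at most 1. Among 5 epithelial markers, Epcam, Krt8, Krt18 and Krt14 had at most 4 counts in any library. The other one, Cdh1, had 0 to 1 counts with DMEM in both genotypes. With rmGM-CSF it had 21 counts in each STAT5fl/fl library and 0 to 1 in STAT5cKO, and with 4T1 CM 63 to 84 and 24 to 47. It was called lower in STAT5cKO with both stimuli (adjusted p = 7.96e-05 and 0.00125). The 5 lymphocyte markers summed to at most 0.318 CPM. The 5 osteoclast markers came mostly from Atp6v0d2 and summed to 232 to 277 CPM in STAT5fl/fl and 179 to 205 in STAT5cKO with DMEM, 248 to 251 and 178 to 188 with rmGM-CSF, and 172 to 204 and 125 to 175 with 4T1 CM. Of these markers 0 of the 3 tested were called between the genotypes. A set of 9 stromal fibroblast markers was low, with sums of 5.58 to 9.28 CPM in STAT5fl/fl and 9.58 to 16.4 CPM in STAT5cKO. The sums were not tested, and 0 of the 3 markers tested were called between the genotypes. Among the STAT5cKO libraries with 4T1 CM, number 115 stood apart in several members, with the highest Mmp9, Mmp14, Mmp19 and Timp1 and the lowest Mmp12 of its group.

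**Figure D1:**
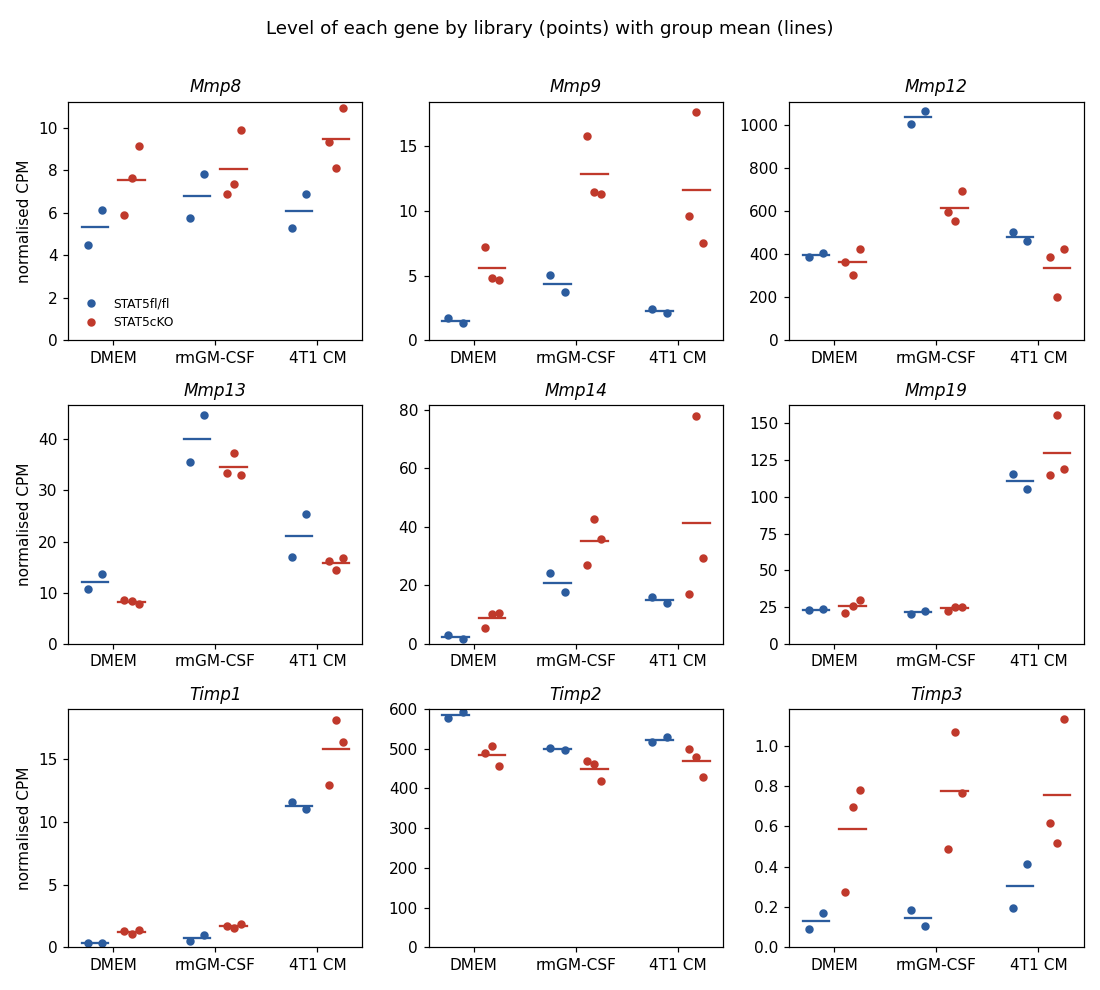
Normalised CPM (linear axis from 0, a separate scale for each gene) of the 9 genes in each of the 15 libraries, by treatment and genotype, with points for libraries and lines for group means. The 3 STAT5cKO points lie above both STAT5fl/fl points for Mmp9, Mmp14, Timp1 and Timp3 in every treatment.

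Measured per transcript length, Timp2 and Mmp12 had the highest mean levels of the members in every group. In STAT5fl/fl cells with DMEM, Timp2, an inhibitor that also takes part in the activation of pro-MMP2 by MMP14, was at 553 ± 5.91 TPM (transcripts scaled by exon length and library size, SD, n = 2). Mmp12, the macrophage elastase, was at 201 ± 5.57 TPM. These levels were far above those of the other members. Mmp19 followed at 24.3 ± 0.503, Mmp13 at 16.7 ± 2.70 and Mmp8 at 8.06 ± 1.68 TPM. Mmp9 (1.56 ± 0.287), Timp1 (1.45 ± 0.169) and Mmp14 (1.44 ± 0.565) did not differ beyond their spread, and Timp3 was last at 0.0587 ± 0.0245 TPM. Timp3 had 2 to 8 counts in STAT5fl/fl libraries, near the floor. The order changed with the stimuli. In STAT5fl/fl cells with rmGM-CSF, Mmp12 at 472 ± 14.8 TPM stood above Timp2 at 422 ± 6.30, and Mmp13 was next at 49.5 ± 7.64. With 4T1 CM the order was Timp2 at 430 ± 4.18, Mmp12 at 214 ± 15.3, Mmp19 at 100.4 ± 7.28 and Timp1 at 40.8 ± 1.66 TPM. STAT5cKO cells (n = 3) had Timp2 above Mmp12 in each treatment, at 457 ± 33.4 and 184 ± 27.8 TPM with DMEM and 393 ± 26.7 and 290 ± 33.7 with rmGM-CSF. With 4T1 CM, Mmp12 at 151 ± 55.6 and Mmp19 at 118 ± 17.6 TPM did not differ beyond their spread, and in number 115 Mmp19 was the higher of them.

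The sum of the 6 MMPs and of the 3 TIMPs gave the balance of transcripts in each library. The ratio of MMP to TIMP transcripts was 0.448 and 0.465 in STAT5fl/fl and 0.510, 0.446 and 0.647 in STAT5cKO libraries with DMEM. With rmGM-CSF it was 1.28 and 1.38 in STAT5fl/fl and 0.926, 0.920 and 1.18 in STAT5cKO. With 4T1 CM it was 0.786 and 0.734, and 0.711, 0.687 and 0.857. The ratio was thus highest with rmGM-CSF in both genotypes, and only with rmGM-CSF did the genotypes not overlap, STAT5fl/fl being higher. Mmp12 made up 68.9% to 83.8% of MMP transcripts with DMEM or rmGM-CSF and 28.0% to 61.0% with 4T1 CM, the lowest being number 115. Timp2 made up 98.0% to 99.8% of TIMP transcripts with DMEM or rmGM-CSF and 85.5% to 91.6% with 4T1 CM. These sums count transcripts and not protein or activity.

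**Figure D2:**
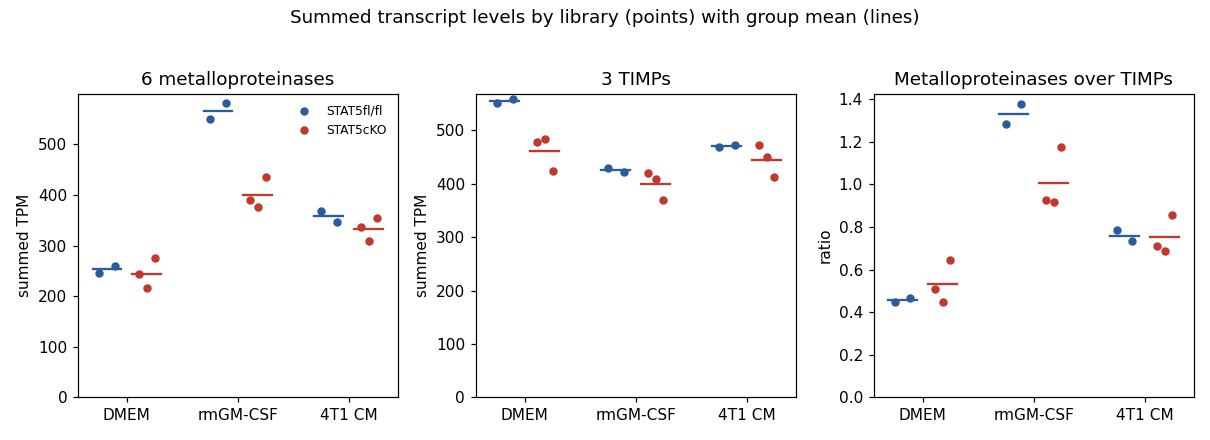
Summed TPM of the 6 MMPs, summed TPM of the 3 TIMPs and their ratio (linear axes from 0) by treatment and genotype, with points for libraries and lines for group means. The ratio lies between 0.446 and 0.647 with DMEM and between 0.920 and 1.38 with rmGM-CSF.

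Between treatments, rmGM-CSF raised a group of secreted and membrane-bound MMPs and no TIMP. In STAT5fl/fl cells 3 of 9 members were called higher at an adjusted p under 0.01 (edgeR quasi-likelihood test, Benjamini-Hochberg over 13005 genes) and none lower, where 28.5% of all genes were called and 15.9% were called higher. In STAT5cKO cells 4 of 9 were called, all higher, against 23.5% called and 13.3% called higher among all genes. The median log2 fold change over the members was 1.14 in STAT5fl/fl and 0.41 in STAT5cKO, against -0.01 and 0.00 over all genes. Both member medians are the value of Timp1, which was called in neither genotype.

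Mmp13, a collagenase, and Mmp12 are neighbours in a cluster of 10 Mmp genes on chromosome 9 (GRCm38). Both lie on the plus strand, Mmp13 at 7272514 to 7283331 and Mmp12 at 7344381 to 7369499. Of the 250 bases before a start site, the RefSeq tables (GRCm38.p6) gave 8 windows for 7 of the 9 members. Mmp9 and Mmp19 had no window and were not searched. TGANTCA, a pattern that takes in the AP-1 sites TGACTCA and TGAGTCA, was found in 2 of the 8. These were the windows of Mmp13 and of the second Mmp12 start, which lies inside the Mmp12 span of the count table. With any base allowed at N, the pattern was in 6.75% of all 32851 windows. TTCNNNGAA, the palindrome bound by STAT factors, was in none of the 8 and in 7.02% of all windows. Both motifs read the same on either strand and were searched without mismatch, and a match is a description of the letters only. The window of Mmp14, which also rose with rmGM-CSF, and that of the first Mmp12 start hold neither motif and are not shown. The windows of Mmp13 (chr9:7272264-7272513, plus strand) and of Mmp12 (chr9:7347124-7347373, plus strand) are shown because they hold TGANTCA, given in capitals.
Mmp13: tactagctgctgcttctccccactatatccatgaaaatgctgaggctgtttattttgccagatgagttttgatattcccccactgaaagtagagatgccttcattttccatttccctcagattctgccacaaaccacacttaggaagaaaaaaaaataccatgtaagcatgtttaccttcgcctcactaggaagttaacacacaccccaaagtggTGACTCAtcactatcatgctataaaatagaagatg
Mmp12, second start: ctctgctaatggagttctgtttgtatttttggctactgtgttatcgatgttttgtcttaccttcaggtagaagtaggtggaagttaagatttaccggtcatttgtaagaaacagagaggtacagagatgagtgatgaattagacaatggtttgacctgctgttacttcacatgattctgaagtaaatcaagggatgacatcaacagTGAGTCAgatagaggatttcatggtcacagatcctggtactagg
The motif began 35 bases before the Mmp13 start and 44 bases before the second Mmp12 start.

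Mmp13 was at 10.7 and 13.6 normalised CPM in STAT5fl/fl cells with DMEM and at 35.5 and 44.8 with rmGM-CSF. In STAT5cKO cells it went from 8.64, 8.31 and 7.70 to 33.4, 37.3 and 33.1 CPM. The groups did not overlap in either genotype. Between treatments, the share of all genes without overlap was not computed, for this gene or those below. The log2 fold change was 1.73 (SE 0.16, adjusted p = 1.84e-07) in STAT5fl/fl and 2.08 (SE 0.14, adjusted p = 3.19e-09) in STAT5cKO. With 4T1 CM it rose less, to 16.9 and 25.3 CPM (log2 fold change 0.79, SE 0.17, adjusted p = 0.000865) and to 16.2, 14.4 and 16.8 CPM (0.95, SE 0.15, adjusted p = 4.45e-05).

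Mmp12 was at 385 and 404 CPM in STAT5fl/fl cells with DMEM and at 1006 and 1067 with rmGM-CSF. In STAT5cKO cells the values were 364, 304 and 424 CPM and then 596, 553 and 696. Both genotypes responded without overlap, by a log2 fold change of 1.39 (SE 0.23, adjusted p = 0.000121) and 0.75 (SE 0.19, adjusted p = 0.00453). The response was 0.64 lower in STAT5cKO (SE 0.29), a difference that did not pass the test (adjusted p = 0.322). Without number 115 the same difference was -0.68 with adjusted p = 0.00704, and without numbers 112, 113 or 114 the rise within STAT5cKO did not pass (adjusted p = 0.0139 to 0.0274). Without number 112 or 113 the rise within STAT5fl/fl did not pass either (adjusted p = 0.0132 and 0.0153). With 4T1 CM Mmp12 did not pass in either genotype, with a log2 fold change of 0.29 and -0.11. It was lower with 4T1 CM than with rmGM-CSF in both (-1.10, adjusted p = 0.000903, and -0.87, adjusted p = 0.00106), although in STAT5fl/fl not without number 112 or 113 (adjusted p = 0.022 and 0.0699).

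Mmp14, a membrane-anchored collagenase that activates pro-MMP2, rose with both stimuli. In STAT5fl/fl cells it was at 2.96 and 1.69 CPM with DMEM, 24.2 and 17.6 with rmGM-CSF and 16.2 and 14.0 with 4T1 CM. In STAT5cKO cells it was at 5.51, 10.1 and 10.4, then 27.1, 42.7 and 35.8, and then 16.9, 77.8 and 29.4 CPM. All stimulated libraries lay above all DMEM libraries of either genotype, and the 4T1 CM library numbered 115 lay far above its group. The log2 fold change with rmGM-CSF was 3.17 (SE 0.68, adjusted p = 0.00118) in STAT5fl/fl and 2.01 (SE 0.42, adjusted p = 0.0012) in STAT5cKO. With 4T1 CM it was 2.71 (SE 0.70, adjusted p = 0.0038) and 2.24 (SE 0.41, adjusted p = 0.000212), and in STAT5cKO it was 1.53 (adjusted p = 0.000528) without number 115. In STAT5fl/fl neither call passed without number 112 or 113 (adjusted p = 0.0373 to 0.0819).

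Mmp9, gelatinase B, was at 1.68 and 1.31 CPM in STAT5fl/fl cells with DMEM, 5.04 and 3.70 with rmGM-CSF and 2.38 and 2.12 with 4T1 CM. In STAT5cKO cells it was at 7.21, 4.83 and 4.65, then 15.8, 11.5 and 11.3, and then 9.64, 17.7 and 7.51 CPM. Stimulated and unstimulated libraries did not overlap within a genotype, which for STAT5fl/fl is 2 libraries against 2 and says little alone. The rise with rmGM-CSF passed in STAT5cKO (log2 fold change 1.22, SE 0.26, adjusted p = 0.00145) and not in STAT5fl/fl (1.54, SE 0.50, adjusted p = 0.022), where it passed under 6 of 12 alternative settings. With 4T1 CM it passed in STAT5cKO (1.06, SE 0.26, adjusted p = 0.00258) and not in STAT5fl/fl (0.60, SE 0.56, adjusted p = 0.406). The STAT5cKO value with 4T1 CM fell to 0.54 (adjusted p = 0.0676) without number 115, and neither response differed between the genotypes by test (adjusted p = 0.906 and 0.818).

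**Figure D3:**
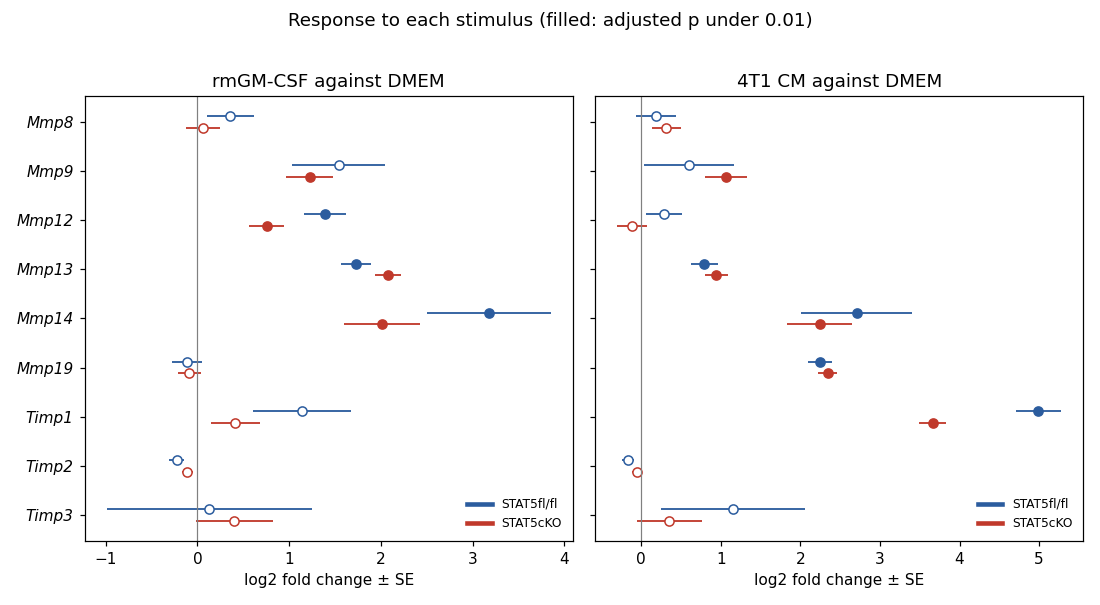
Log2 fold change of each gene against DMEM (x axis, with the standard error as a bar) for rmGM-CSF and 4T1 CM, by genotype, with filled points where the adjusted p is under 0.01. Timp1 and Mmp19 are filled for 4T1 CM only, with Timp1 at 4.99 and 3.66, while Mmp12 is filled for rmGM-CSF only.

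4T1 CM raised the inhibitor Timp1 and the protease Mmp19, neither of which was called with rmGM-CSF. In STAT5fl/fl cells 4 of 9 members were called higher with 4T1 CM and none lower, against 37.4% of all genes called and 19.2% called higher. In STAT5cKO cells 5 of 9 were called higher and none lower, against 37.6% called and 19.3% called higher. The median log2 fold change over the members was 0.79 and 0.95, against 0.02 and 0.01 over all genes.

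Timp1 lies on chromosome X at 20870166 to 20874735 on the plus strand. Its upstream window (chrX:20869916-20870165, plus strand) is shown because Timp1 had the largest fold change of the 9, and it holds neither motif.
Timp1: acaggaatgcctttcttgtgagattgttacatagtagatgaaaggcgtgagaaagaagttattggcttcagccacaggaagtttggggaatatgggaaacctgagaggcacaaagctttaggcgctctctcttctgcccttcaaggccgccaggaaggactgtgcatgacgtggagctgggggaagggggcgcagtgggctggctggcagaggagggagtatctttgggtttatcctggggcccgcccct
Timp1 had 7 and 9 counts in STAT5fl/fl cells with DMEM, 8 and 19 with rmGM-CSF and 238 and 214 with 4T1 CM. These are 0.318 and 0.379, 0.498 and 1.02, and 11.6 and 11.04 normalised CPM. STAT5cKO cells had 1.29, 1.09 and 1.36 CPM with DMEM, 1.67, 1.51 and 1.85 with rmGM-CSF and 12.9, 18.1 and 16.4 with 4T1 CM. Every 4T1 CM library lay above every other library by a wide margin. The log2 fold change with 4T1 CM was 4.99 (SE 0.29, adjusted p = 2.34e-10) in STAT5fl/fl and 3.66 (SE 0.17, adjusted p = 9.51e-12) in STAT5cKO. The difference between these, -1.33 (SE 0.45), did not pass the test (adjusted p = 0.158). With rmGM-CSF the change was 1.14 (adjusted p = 0.103) and 0.41 (adjusted p = 0.257).

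Mmp19, which cuts basement membrane proteins and aggrecan, was at 22.8 and 23.7 CPM in STAT5fl/fl cells with DMEM, 20.5 and 22.5 with rmGM-CSF and 116 and 106 with 4T1 CM. In STAT5cKO cells the values were 21.0, 25.8 and 29.8, then 22.4, 25.1 and 24.8, and then 115, 156 and 119 CPM. The 4T1 CM libraries stood apart from the rest in both genotypes. The rise was nearly equal in size, at a log2 fold change of 2.25 (SE 0.15, adjusted p = 1.09e-09) and 2.34 (SE 0.12, adjusted p = 2.64e-11), and differed by 0.10 (SE 0.19, adjusted p = 0.885).

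Set against rmGM-CSF, 4T1 CM gave higher Timp1 and Mmp19 and lower Mmp12 and Mmp13 in both genotypes, 4 of 9 members called in each. Among all genes 30.5% were called in STAT5fl/fl and 34.1% in STAT5cKO. For Timp1 the log2 fold change was 3.85 and 3.25, for Mmp19 it was 2.36 and 2.43, and for Mmp13 it was -0.93 and -1.13. The treatment comparisons within a genotype share libraries, so they are not independent of each other.

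Mmp8, the neutrophil collagenase, Timp2 and Timp3 were not called in any comparison of treatments. Mmp8 ranged from 4.501 to 10.9 CPM over the 15 libraries. Timp2 ranged from 418 to 592 CPM, and its largest treatment change was -0.23 with rmGM-CSF in STAT5fl/fl (SE 0.08, adjusted p = 0.0274). Timp3, which binds to the matrix, had 2 to 25 counts in any library.

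Comparing genotypes within a treatment asks how the members differ where STAT5 was deleted. Mmp9 was the member that passed, and it was higher in STAT5cKO. With DMEM 0 of 9 members were called, against 2.49% of all genes. With rmGM-CSF 1 of 9 was called, against 9.8%, and with 4T1 CM 1 of 9, against 7.7%, in both cases Mmp9. The count of 0 with DMEM stands beside 7 of 9 members at an unadjusted p under 0.05, where 2824 of all 13005 genes were. DESeq2 called 3 members there, limma voom with the number as a random effect called 0, and the legacy form of the edgeR test called 2. The median log2 fold change over the members was 0.51 for DMEM, 0.21 for rmGM-CSF and 0.48 for 4T1 CM, against 0.00, 0.00 and 0.01 over all genes. Timp3, which passed the filter through STAT5cKO libraries only, is part of these counts and medians.

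With its values given above, Mmp9 was higher in each STAT5cKO library than in each STAT5fl/fl library of the same treatment. The fold was 2.98 with rmGM-CSF (log2 fold change 1.57, SE 0.33, adjusted p = 0.00273) and 5.13 with 4T1 CM (2.36, SE 0.37, adjusted p = 3e-04). With DMEM it was 3.71 (1.89, SE 0.43, adjusted p = 0.0138) and did not pass. The rmGM-CSF call did not pass without number 112, 113 or 114 (adjusted p = 0.0271, 0.102 and 0.0107). The 4T1 CM call did not pass without number 112 or 113 (0.0115 and 0.0202), whereas without number 115 it was 1.92 (adjusted p = 0.000354). The DMEM difference passed without number 115 (adjusted p = 0.0023). In bulk RNA, more cells that express Mmp9 and more Mmp9 RNA per cell cannot be told apart.

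Across the 15 libraries, the 3 tested genes whose centred log2 CPM lay nearest to that of Mmp9 were Ptges, C3 and Lox. Ptges makes prostaglandin E2, C3 is the central complement protein and Lox cross-links collagen. Their root mean square distance from Mmp9 was 0.50, 0.55 and 0.55 log2 units, where the SD of Mmp9 itself was 1.15. This likeness is a description over libraries that share treatments and genotypes.

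Also Timp1, Mmp14 and Timp3 were higher in STAT5cKO without overlap in all 3 treatments, and none passed the test. In single treatments 39.9% (DMEM), 49% (rmGM-CSF) and 39.3% (4T1 CM) of all genes did not overlap, counting both directions. The share for all 3 treatments together was not computed, and the treatments share their library numbers. The inhibitor Timp1 differed by a log2 fold change of 1.81 with DMEM (SE 0.42, adjusted p = 0.0158), 1.09 with rmGM-CSF (SE 0.36, adjusted p = 0.05) and 0.48 with 4T1 CM (SE 0.13, adjusted p = 0.0221). Mmp14 differed by 1.92 (SE 0.69, adjusted p = 0.112), 0.76 (SE 0.44, adjusted p = 0.277) and 1.45 (SE 0.45, adjusted p = 0.0377). The last was 0.62 (adjusted p = 0.164) without number 115 and 1.83 (adjusted p = 0.00205) without number 114, which had the lowest value of its group. The Timp1 value with 4T1 CM passed without number 114 (0.61, adjusted p = 0.00625) and was 0.38 (adjusted p = 0.107) without number 115. That with rmGM-CSF was 0.70 without number 112 and 1.73 without number 113, and passed in neither case.

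Timp3 had 6 counts in the STAT5fl/fl and 41 in the STAT5cKO libraries with DMEM, 5 and 46 with rmGM-CSF, and 12 and 49 with 4T1 CM. The fitted log2 fold change was 2.13, 2.40 and 1.32, and did not pass (adjusted p = 0.077, 0.0293 and 0.135). Timp3 passed the low-count filter only through 2 STAT5cKO libraries, those numbered 115 (rmGM-CSF) and 116 (4T1 CM), the genotype in which it is higher, so these values are a description of a gene near the floor and no support for a difference.

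The stromal fibroblast markers were also higher in STAT5cKO, without overlap in all 3 treatments. Their summed level was 8.60 to 9.28 CPM in STAT5fl/fl and 14.8 to 16.4 in STAT5cKO with DMEM, 5.58 to 7.04 and 11.4 to 13.6 with rmGM-CSF, and 5.84 to 7.53 and 9.58 to 15.8 with 4T1 CM. Within STAT5fl/fl the sum was lower in each stimulated than in each DMEM library. In STAT5cKO with 4T1 CM it was 11.4, 9.58 and 15.8 CPM. Only Col1a1, Col1a2 and Pdgfrb of the 9 passed the filter and 0 were called between the genotypes. Col1a1 had 3 to 12 counts in STAT5fl/fl and 9 to 74 in STAT5cKO libraries, while Thy1 and Lum had at most 1 count in any library. The paper reports higher Col1a1 RNA and type I collagen protein from stimulated STAT5cKO BMDMs and takes them as made by the macrophages. The part of stromal cells in the levels of Mmp9, Mmp14, Timp1 and Timp3 was not tested. Neutrophils also make Mmp8 and Mmp9. The 10 neutrophil markers summed to 0.637 to 0.927 CPM in STAT5fl/fl and 0.322 to 0.913 in STAT5cKO with DMEM, 0.623 to 0.643 and 0.588 to 1.596 with rmGM-CSF, and 0.924 to 1.86 and 1.37 to 2.60 with 4T1 CM. Of the 10, S100a8 alone passed the filter, and it was higher with 4T1 CM than with DMEM in STAT5cKO (log2 fold change 1.96, adjusted p = 0.00246), with 3 to 16 counts with DMEM and 16 to 50 with 4T1 CM. It was not called between the genotypes. Ly6g and Retnlg had 0 counts in every library, and the part of such cells in the levels of Mmp8 and Mmp9 was not tested.

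**Figure D4:**
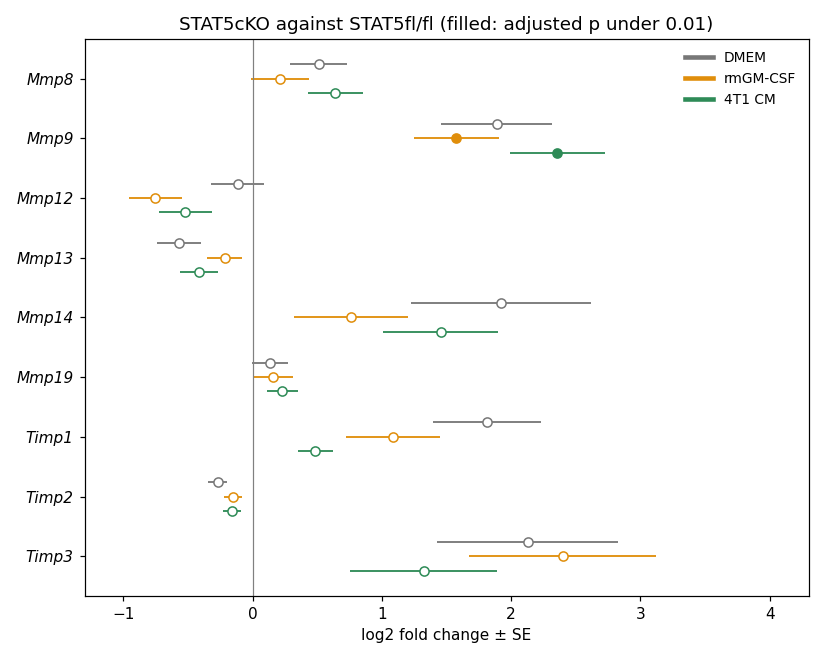
Log2 fold change of STAT5cKO against STAT5fl/fl for each gene (x axis, with the standard error as a bar) in each of the 3 treatments, filled where the adjusted p is under 0.01. The filled points are Mmp9 with rmGM-CSF at 1.57 and with 4T1 CM at 2.36, and the values of Mmp12, Mmp13 and Timp2 lie below 0 in all 3 treatments.

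Mmp12, Mmp13 and Timp2 had negative genotype values in each treatment, and none passed. Mmp12 differed by -0.12 with DMEM (adjusted p = 0.805), -0.75 with rmGM-CSF (SE 0.20, adjusted p = 0.0167) and -0.52 with 4T1 CM (adjusted p = 0.105), which was -0.25 (adjusted p = 0.0999) without number 115. The rmGM-CSF libraries of the genotypes did not overlap, and this difference passed without number 115 (-0.68, adjusted p = 0.000131) and without number 116 (-0.85, adjusted p = 0.00915). Mmp13 differed by -0.57, -0.22 and -0.41 (adjusted p = 0.0526, 0.314 and 0.0745), the last of which was -0.68 and passed without number 112 (adjusted p = 0.0028) and was -0.10 without number 113 (adjusted p = 0.714). Timp2 was lower in each STAT5cKO library than in each STAT5fl/fl library in all 3 treatments, by -0.27 (SE 0.07), -0.15 and -0.16 (adjusted p = 0.0283, 0.168 and 0.154).

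Mmp8 differed by 0.51, 0.21 and 0.64 (adjusted p = 0.181, 0.586 and 0.0542) and Mmp19 by 0.14, 0.16 and 0.23 (adjusted p = 0.629, 0.531 and 0.228), the last value for Mmp19 being 0.08 (adjusted p = 0.714) without number 115. Counting members whose genotypes did not overlap gave 6 of 9 with DMEM, 4 of them higher, where 39.9% of all genes did not overlap. With rmGM-CSF it was 6 of 9, again 4 higher, where the share was 49%, and with 4T1 CM it was 8 of 9, with 5 higher, where the share was 39.3%. Timp3, which entered through STAT5cKO libraries only, is among the higher members in each treatment, so its place in these counts is set in part by the filter. Mmp8 joined the higher members with 4T1 CM, at 5.30 and 6.86 CPM in STAT5fl/fl and 9.31, 8.12 and 10.9 in STAT5cKO.

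The difference of the response between the genotypes was called for 0 of 9 members with rmGM-CSF, against 3.11% of all genes, and for 0 of 9 with 4T1 CM, against 1.27%. At an unadjusted p under 0.05 there was 1 member in each, Mmp12 with rmGM-CSF and Timp1 with 4T1 CM, where 1901 and 1865 of all 13005 genes were. DESeq2 and the legacy form of the edgeR test also called 0 in both.

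Other genes of matrix proteolysis were taken from fixed lists. Of a list of 18 genes, the further MMPs and Timp4, 3 passed the filter, Mmp11, Mmp25 and Mmp27. Mmp27, a neighbour of Mmp8 on chromosome 9, was lower in STAT5cKO with DMEM (log2 fold change -0.79, adjusted p = 0.00355) and with rmGM-CSF (-0.80, adjusted p = 0.00199). Its level was 6.00 to 6.03 CPM in STAT5fl/fl and 3.01 to 4.04 in STAT5cKO with DMEM. Mmp25, a membrane-anchored MMP of leukocytes, was lower in STAT5cKO with rmGM-CSF (-2.61, adjusted p = 0.00114), with 27 to 43 counts against 3 to 9. In the chromosome 9 cluster of 10 genes, from 7272514 to 7699585, 4 genes were at or under the floor in every library, Mmp1a, Mmp1b, Mmp7 and Mmp20.

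Of 14 activators, protease inhibitors and surface partners, 12 passed the filter. In STAT5cKO 1 was lower with DMEM and 0 higher, where 2.49% of all genes were called. With rmGM-CSF 4 were lower and 2 higher, against 9.8% of all genes called. With 4T1 CM 4 were lower and 1 higher, against 7.7%. Plau, the urokinase that starts the plasmin route of MMP activation, was lower in STAT5cKO with rmGM-CSF (-0.79, adjusted p = 5.59e-05) and 4T1 CM (-0.66, adjusted p = 0.000547). Serpine2 was lower with DMEM (-0.87, adjusted p = 0.00376) and 4T1 CM (-1.03, adjusted p = 0.00104). With rmGM-CSF, Cd44, a hyaluronan receptor that can hold MMP9 at the cell surface, was lower (-0.63, adjusted p = 2.74e-06) and the integrin subunit Itgav was higher (0.58, adjusted p = 0.000166). Against DMEM, 4T1 CM lowered 0 of the 12 and raised 8 in each genotype, where 19.2% and 19.3% of all genes were called higher. Among the 8 was Plaur, the urokinase receptor, with a log2 fold change of 2.64 in STAT5fl/fl and 3.13 in STAT5cKO.

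Of 13 ADAM and ADAMTS proteases, which shed surface proteins or cut matrix proteoglycans, 9 passed the filter. Between the genotypes 0 were called with DMEM, 1 was higher and 1 lower with rmGM-CSF and 2 were higher with 4T1 CM. Among all genes 2.49%, 9.8% and 7.7% were called. The ADAM genes called were Adam8 (0.56, adjusted p = 1.71e-05) and Adam9 (-0.31, adjusted p = 0.00959) with rmGM-CSF, and Adam19 (0.70, adjusted p = 0.00354) and Adam17 (0.44, adjusted p = 7.82e-05) with 4T1 CM. Of 9 cathepsins, the lysosomal proteases, 1 was called between the genotypes, Ctsc, which was lower with rmGM-CSF (-0.76, adjusted p = 0.000491). Among the list genes named here, the genotype calls of Mmp25, Mmp27, Serpine2, Itgav, Adam9, Adam19 and Ctsc each failed without at least 1 number, 112 or 113 in every case. Calls of Mmp27, Serpine2, Adam9 and Adam19 also failed without a STAT5cKO number. With only the libraries compared, calls of Mmp27 (DMEM), Serpine2 (4T1 CM) and Adam19 failed. That of Adam9 failed with another low-count filter and by limma voom.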

How the data were processed

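BMDM libraries of 6 groups were compared. The authors trimmed reads with Trimmomatic 0.33, aligned them to GRCm38 with HISAT2 2.1.0 and counted fragments per Ensembl gene with featureCounts 1.6.2, on the strand of the gene, for pairs with both ends mapped and mapping quality 10 or more. The counts deposited by the authors are not normalised, and other deposited columns hold positions and exon length. The STAT5fl/fl replicate that the authors removed after quality control is not analysed here. The study describes the replicates as biological.

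Of 55385 genes, 55144 matched a symbol. In R 4.3.3 with edgeR 4.0.16, genes over 1 CPM in at least 2 libraries were kept (13005) and counts were scaled by relative log expression. All 15 libraries entered 1 model of the 6 groups, tested by the quasi-likelihood F test at a Benjamini-Hochberg adjusted p under 0.01. The paper's methods state this scaling, filter and threshold. SE is the log2 fold change over the square root of F. TPM was computed from counts and exon length. Timp2 shares its strand with the overlapping Cep295nl (12 to 34 counts). In counts simulated for the genotype comparison with 4T1 CM over 13005 genes, 200 genes were shifted by 1 on the log2 scale, all with a mean count of 20 or more. Of these 82% were recovered, and 2.38% of the 168 genes called were false. The shifted genes were drawn at random and the libraries were independent. This share need not hold for members with few counts or a wide spread, such as Timp3 or Mmp14.

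Members, lists and tests were chosen with earlier results of these data known. Named genes are the members, Stat5a and Stat5b, the 3 genes nearest to each member called between genotypes, and the 2 called list genes per direction with the largest change in each genotype comparison. Markers, Plaur, the cluster genes and Cep295nl were named after their values were seen. A gene of the activator list that the rule selects is not reported here. Lists held the other MMPs with Timp4, activators and partners, ADAM proteases, cathepsins, and markers of macrophages, neutrophils, stromal fibroblasts, osteoclasts, epithelium and lymphocytes. Alternatives were TMM, no filter, filterByExpr, DESeq2 1.42.0, only the groups compared, each number left out, the number as a random effect (limma 3.58.1) or block, and, added after the data were seen, the legacy test.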

Additional observations from a re-analysis of the deposited data

Results flagged for a closer look

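Mmp8 moved in opposite directions between 4T1 CM and rmGM-CSF in the genotypes when libraries of the same number were subtracted. In STAT5fl/fl cells it was lower with 4T1 CM for both numbers, by a mean of -0.696 normalised CPM, and in STAT5cKO cells it was higher for all 3 numbers, by a mean of 1.41. This difference between the genotypes was not tested. The case was picked out by a search for differences between groups, and how often chance alone gives such a case was not computed. With so few libraries it is a description only. Neither treatment comparison passed for Mmp8 (adjusted p = 0.621 and 0.27). No group has enough libraries for a check of single outlying values.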

How the results depend on the processing

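The 26 member results called kept their direction in all 312 fits of the alternatives and stayed under the threshold in 294. Of 1155 fits over all 99 member results, 14 reversed, each on leaving out a number and none of a called result.

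Between genotypes with DMEM, where 0 members were called, 2 were called without the filter, 3 by DESeq2, 2 with only the libraries compared and 2 by the legacy test, and 0 to 1 with a number left out. With rmGM-CSF (1 called) the counts were 2 without the filter, 3 with only the libraries compared and 0 to 2 with a number left out. With 4T1 CM (1 called) they were 2 without the filter and 0 to 3. For rmGM-CSF against DMEM in STAT5fl/fl (3 called) they were 5 with only the libraries compared and 1 to 4 with a number left out, and for the difference of the rmGM-CSF response (0 called) 0 to 1. The cause was not tested. Leaving out 112 or 113 leaves 1 STAT5fl/fl library in a group, which is assumed to vary like the others.

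With the number as a replicate block, 5 members were called for rmGM-CSF against DMEM in STAT5fl/fl, the further ones being Mmp9 (adjusted p = 0.00635) and Timp2 (0.00482). No other member call changed under the block. Deviations of libraries with the same number correlated at 0.0926 to 0.213 in STAT5fl/fl and 0.0548 to 0.214 in STAT5cKO, and 16 of 18 comparisons in STAT5cKO were highest for the same number. The labels do not say what a number marks. Between the genotypes no paired analysis was possible because they share no number.

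The reversed values had these ranges with a number left out. Timp3 ran from -0.62 to 0.99 for rmGM-CSF against DMEM in STAT5fl/fl. In STAT5cKO, Mmp19 ran from -0.15 to 0.0225 for rmGM-CSF and Mmp12 from -0.22 to 0.0376 for 4T1 CM, against DMEM, and Mmp9 from -0.68 to 0.14 and Mmp14 from -0.43 to 0.44 for 4T1 CM against rmGM-CSF. For the difference of the rmGM-CSF response, Mmp19 ran from -0.0454 to 0.13 and Timp3 from -0.59 to 1.02. For that of the 4T1 CM response, Mmp8 ran from -0.0044 to 0.23, Mmp9 from -0.0543 to 0.81 and Mmp19 from -0.0504 to 0.28.

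Over all genes, DESeq2 called 540 with DMEM between genotypes in place of 324. With only the libraries compared, 280 in place of 1001 were called with 4T1 CM. For the difference of the 4T1 CM response the counts were 342 by DESeq2, 79 with only the libraries compared and 302 under the block, in place of 165. Leaving out a number gave 47 to 243 calls between genotypes with DMEM, 546 to 1010 (in place of 1275) with rmGM-CSF and 334 to 835 with 4T1 CM. Against DMEM it gave 1736 to 3618 (in place of 3704) for rmGM-CSF and 2671 to 4720 (4867) for 4T1 CM in STAT5fl/fl, and 1833 to 2830 (3053) for rmGM-CSF in STAT5cKO. Between 4T1 CM and rmGM-CSF in STAT5fl/fl it gave 1696 to 3807 (3968), and for the differences of the responses 134 to 271 (404) with rmGM-CSF and 24 to 99 with 4T1 CM. At these depths Timp3, and Timp1 without 4T1 CM, rest on few counts.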
